A study of Mus musculus with 6 samples.

Results

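Neurons release transmitter through a shared set of proteins, and the transcripts of 30 of them were followed in nuclei of Foxp2-labelled neurons of the mouse medial prefrontal cortex (mPFC). The members were chosen by name as genes of vesicle fusion, priming, the active zone and calcium sensing, with earlier results of these data known, and no value entered the rule. All 30 were found among the 24421 rows of the deposited gene table, and all 30 were among the 13560 genes with enough counts to be tested. CFA libraries (3) came from Foxp2-Cre mice given CFA, complete Freund's adjuvant, an agent used to produce lasting inflammatory pain, and saline libraries (3) came from Foxp2-Cre mice given saline. Both groups carried the same Foxp2-driven Cre and the same virus, injected into the mPFC on both sides 4 weeks before collection, which expresses GFP with a KASH domain that anchors it in the nuclear envelope. Each library was made from 10000 sorted nuclei. The labels give neither the animals' age and sex, nor the site and time of the CFA injection, nor whether a library holds 1 animal or a pool, so p-values reflect only how far these libraries vary, part of which may be technical.

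At a nerve terminal, vesicles carry the SNARE protein synaptobrevin, which zips together with syntaxin and SNAP-25 on the plasma membrane to drive fusion. Active zone scaffolds hold vesicles near calcium channels, Munc13 proteins prime them, complexins clamp and promote the SNARE complex, and synaptotagmins trigger fusion when calcium enters. NSF and its adaptor SNAP then take the spent complex apart. In cortical projection neurons these proteins act at distant axon terminals, while the RNA measured here was that of the nuclei. For members with an entry in RefSeq's promoter table, the start site windows (250 bases before to 50 bases after the start, GRCm38.p6) were rich in CpG: the median was 17.5 CpG in 28 windows of 22 member genes, against 7 in 32817 windows of all genes. Windows of 3 members are shown, Pclo as the member whose groups did not overlap, Unc13a as the priming and active zone gene with the highest mean per length, and Syn1 as a gene with a classic neuronal promoter. The capitals mark the GC box GGGCGG, the cAMP response element TGACGTCA, and the left (TTCAGCACC) and right (GGACAGC) parts of RE1, the site of the repressor REST, on either strand.
Pclo, chr5:14514668-14514967, plus strand: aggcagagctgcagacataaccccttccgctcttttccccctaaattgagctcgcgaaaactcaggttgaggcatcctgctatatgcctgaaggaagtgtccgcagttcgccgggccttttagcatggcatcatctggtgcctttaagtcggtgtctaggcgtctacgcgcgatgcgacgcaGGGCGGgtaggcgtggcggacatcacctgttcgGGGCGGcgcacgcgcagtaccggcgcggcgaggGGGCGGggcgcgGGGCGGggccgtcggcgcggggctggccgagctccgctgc
Unc13a, chr8:71671708-71672007, minus strand: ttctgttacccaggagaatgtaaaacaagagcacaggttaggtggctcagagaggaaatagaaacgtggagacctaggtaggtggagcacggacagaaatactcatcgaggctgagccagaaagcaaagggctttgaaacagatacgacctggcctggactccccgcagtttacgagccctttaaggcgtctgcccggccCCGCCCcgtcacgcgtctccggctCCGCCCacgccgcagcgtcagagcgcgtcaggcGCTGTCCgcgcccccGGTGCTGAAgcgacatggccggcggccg
Syn1, chrX:20920869-20921168, minus strand: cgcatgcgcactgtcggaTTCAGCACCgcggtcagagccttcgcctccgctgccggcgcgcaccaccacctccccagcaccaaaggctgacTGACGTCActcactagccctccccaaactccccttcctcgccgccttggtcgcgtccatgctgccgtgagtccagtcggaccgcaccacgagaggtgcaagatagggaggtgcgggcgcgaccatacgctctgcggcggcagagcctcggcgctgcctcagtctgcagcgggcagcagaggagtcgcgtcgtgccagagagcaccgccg
A GC box lay in 60.7% of the member windows and in 35.631% of all windows. Both RE1 parts were found in the Unc13a window. The left part, found in 0.372% of all windows and 7.14% of member windows (2 of 28), was also in the Syn1 window. The right part, found in 6.561% of all windows and 7.14% of member windows, was also in the Rimbp2 window, which is not shown. The cAMP response element was in the Syn1 window alone of the member windows (3.57%, 1 of 28) and in 1.792% of all windows. These matches describe the letters only and were not tested against the values below.

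Total counts were 10663201 to 11850741 in CFA libraries and 9673038 to 11117681 in saline libraries. Slc17a7, the vesicular glutamate transporter of cortical excitatory neurons, was at 2279 ± 357 CPM (counts per 1e6, TMM-scaled) in the CFA group, against 2144 ± 177 CPM in the saline group (SD, n = 3 each). Foxp2 was at 29.2 ± 5.50 CPM in the CFA group, against 33.8 ± 8.61 CPM in the saline group. Of the 7 corticothalamic markers that hold both genes, 2 had a positive and 5 a negative log2 fold change. Ntsr1 (-0.58) alone did not overlap, where 7.51% of all genes did not overlap. Markers of other cells were present too: the GABA-synthesis genes Gad1 (64.9 ± 18.8 CPM in CFA, 60.2 ± 12.4 CPM in saline) and Gad2 (22.3 ± 8.57 CPM in CFA, 19.0 ± 6.91 CPM in saline) were in every library, with Gad1 above Foxp2. Astrocyte markers (10) summed to 247 to 344 CPM in CFA libraries and 216 to 225 CPM in saline libraries, with 6 of 10 positive. Of these, 3 (Aldoc, Slc1a3 and Fgfr3) were higher in CFA without overlap, where 3.55% of all genes were. The same 3 had an unadjusted p under 0.05 by edgeR (30%, against 3.22% of all genes). Microglia markers (10) summed to 99.5 to 157 CPM in CFA libraries and 79.7 to 113 CPM in saline libraries, with 9 of 10 positive. Aif1 alone of them was higher in CFA without overlap, and Csf1r alone had an unadjusted p under 0.05 by edgeR (10%). An adjusted p under 0.05 was reached by 0 markers of the astrocyte and microglia lists. Oligodendrocyte markers (9) summed to 312 to 486 CPM in CFA libraries and 345 to 445 CPM in saline libraries. Striatal projection neuron markers (10) summed to 290 to 488 CPM in CFA libraries and 397 to 1016 CPM in saline libraries. All 9 tested ones had a negative log2 fold change, with a median of -1.01. An unadjusted p under 0.05 by edgeR was reached by 6 of the 9 (66.7%, against 3.22% of all genes), and an adjusted p under 0.05 by 0. The part of these markers in the members' values was not tested. Saline replicate 3 stood apart: 6 nuclear-retained RNAs (Malat1, Meg3, Snhg11, Miat, Rian and Mirg) summed to 22110 to 32120 CPM in CFA libraries and to 24891, 25957 and 45886 CPM in saline replicates 1, 2 and 3. For members at 1 RPKM or more that are given per library, values without it are stated where the sign changed or the size moved by over 1.5 times. In RNA pooled from many nuclei, fewer nuclei of a type and less RNA per nucleus cannot be told apart.

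Release machinery transcripts spanned nearly 4 orders of magnitude in these nuclei, while CFA and saline libraries lay close together. To compare genes, levels were divided by the exon length of each gene model (RPKM, here TMM-scaled counts per kilobase per 1e6). By their mean over 6 libraries, 13 members were at 100 RPKM or more, 8 between 10 and 100, 5 between 1 and 10, and 4 (Doc2b, Syt2, Sv2c and Unc13c) under 1 RPKM. Snap25, the plasma membrane SNARE, was highest, at 1397 ± 159 RPKM in CFA and 1328 ± 346 RPKM in saline libraries, and Unc13c was lowest. The priming and active zone genes as a class were low per length: all 9 averaged 19.0 RPKM or less. They include the longest gene models of the members, Pclo (22100 exon bases) and Bsn (15937 exon bases), and coverage along transcripts was not examined. The lengths come from the table's gene models, which held 12.3% (Rims3) to 100.2% (Syt4) of the exon bases of the GENCODE M21 models of the same build, so levels of genes with short models are less certain than their differences between groups.

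**Figure D1:**
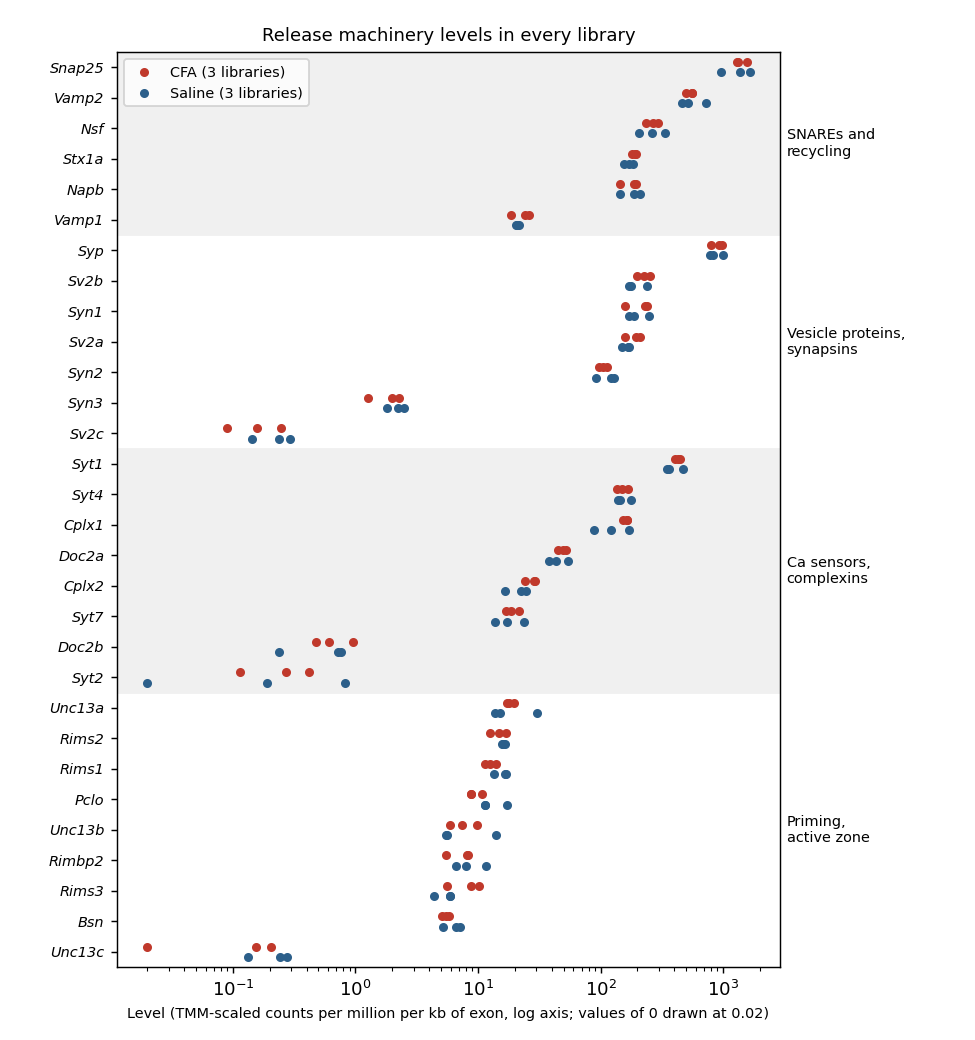
Length-scaled level of the 30 members (x, TMM-scaled counts per 1e6 per kilobase of exon, log axis) in each CFA library (red, upper) and saline library (blue, lower), grouped by role. Snap25 sits near 1362 and Unc13c near 0.17, and the groups overlap for all members except Pclo.

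Comparing CFA with saline libraries asked whether the pain condition goes with another level of the release machinery. No member passed the threshold: 0 of 30 were under an adjusted p of 0.05 (quasi-likelihood test of edgeR, Benjamini-Hochberg over all 13560 genes), where 0% of all genes were, and the smallest adjusted p among members was 0.99997. DESeq2 and limma-voom also called 0 members. Of the members, 14 had a positive and 16 a negative log2 fold change (CFA minus saline), with a median of -0.024, against a median of -0.0011 over all genes tested, of which 49.8% were positive. An unadjusted p under 0.05 was reached by 1 member, Pclo, 3.33% of the 30, where 3.22% of all genes reached it (1.35% higher and 1.87% lower). Groups did not overlap for 1 member, again Pclo, where 7.51% of all genes did not overlap. The first share is near the background and the second, 1 of 30, is below it. These counts moved with single libraries: at an unadjusted p under 0.05 there were 3 members without saline replicate 2 (Pclo, Cplx1 and Cplx2), where 3.71% of all genes reached it in the same fit. There were 0 members without saline replicate 3 (6.75% of all genes), CFA replicate 2 (3.06%) or CFA replicate 3 (2.11%).

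The precision was enough to bound most differences. The 95% interval of the log2 fold change lay between -1 and 1, a 2-fold difference either way, for 25 of 30 members, and it reached past that for Rims3 and for the 4 members under 1 RPKM. The estimate itself was within 0.5 of 0 for 27 members, the others being Pclo (-0.50), Rims3 (0.60) and Unc13c (-0.84). Members spread less between libraries than the typical tested gene, the median SD on the log2 CPM scale being 0.17 for CFA and 0.29 for saline libraries, against 0.24 for CFA and 0.32 for saline libraries over all genes. Members were not compared with genes of matched level.

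**Figure D2:**
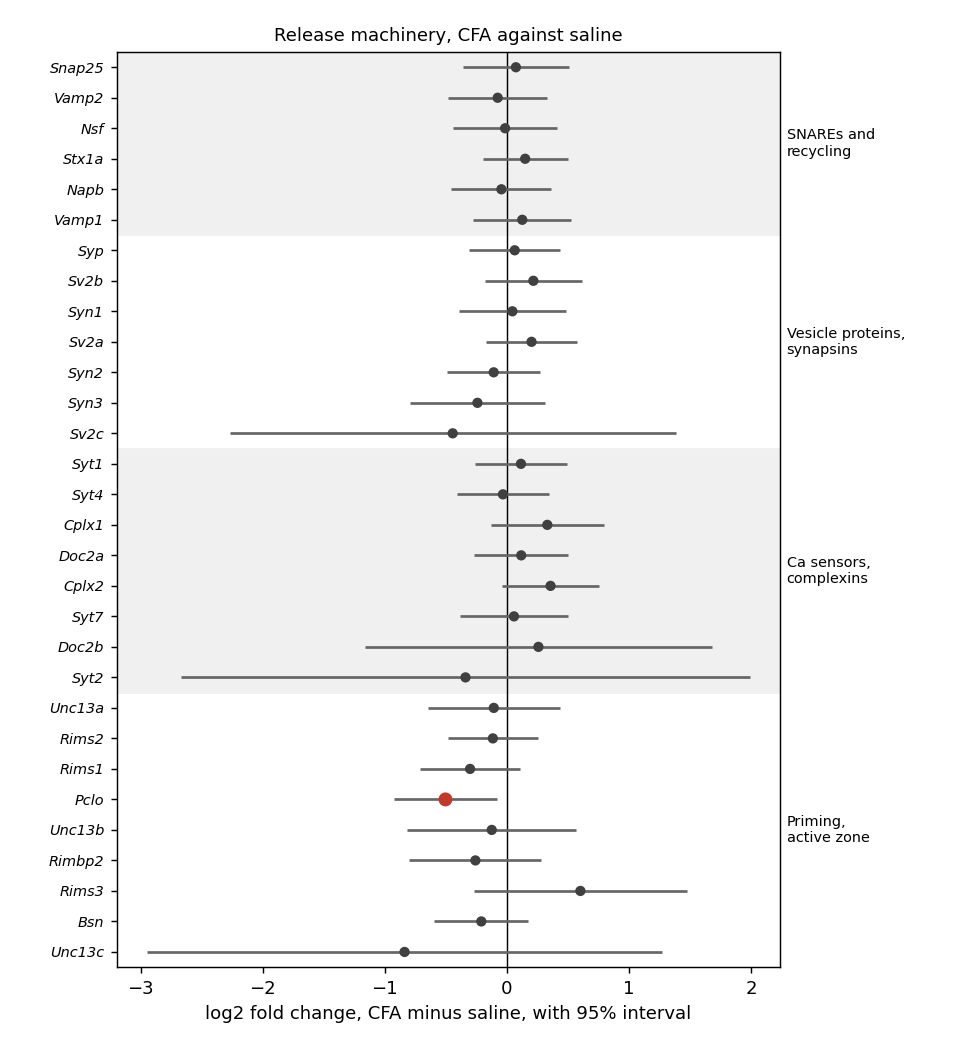
Log2 fold change of each member (x, CFA minus saline) with its 95% interval from edgeR's quasi-likelihood fit, grouped by role. The red point is Pclo (-0.50, interval -0.93 to -0.08), and the widest intervals belong to Unc13c, Syt2, Sv2c and Doc2b.

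The SNARE genes and the genes that recycle SNAREs included the most abundant member, Snap25, and had the narrowest range of differences of the 4 role classes. Their 6 log2 fold changes ran from -0.076 to 0.15, with 3 positive and 3 negative. Snap25 had 2887, 2954 and 3535 CPM in CFA replicates 1, 2 and 3 and 3053, 3700 and 2158 CPM in saline replicates 1, 2 and 3. Both the highest and the lowest of these values were saline libraries. The log2 fold change of Snap25 was 0.073 ± 0.20 (SE), with an interval of -0.36 to 0.51, and it was -0.11 without saline replicate 3 and 0.26 without saline replicate 2. Vamp2, which encodes the main synaptobrevin of the forebrain, was at 539 ± 36.5 RPKM in CFA and 568 ± 135 RPKM in saline libraries. Its paralog Vamp1, a synaptobrevin that prevails in brainstem and spinal cord, was at 22.9 ± 3.87 RPKM in CFA and 21.0 ± 0.550 RPKM in saline libraries. Within a library Vamp2 was 19.0 to 33.4 times Vamp1, and CFA (19.0 to 30.2) and saline (22.1 to 33.4) overlapped. Stx1a, a plasma membrane syntaxin, was at 189 ± 6.51 RPKM in CFA and 171 ± 15.2 RPKM in saline libraries, with a log2 fold change of 0.15, an interval of -0.20 to 0.50, and a value of 0.087 without saline replicate 3. Nsf, the ATPase that separates used SNAREs, was at 266 ± 30.1 RPKM in CFA and 269 ± 67.0 RPKM in saline libraries, and its neuronal adaptor Napb was at 175 ± 26.6 RPKM in CFA and 181 ± 34.0 RPKM in saline libraries. Levels of Stx1a and Napb overlapped, so their order is not fixed.

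Among proteins of the vesicle itself, Syp was far above the rest. Syp encodes synaptophysin, an abundant membrane protein of the vesicle, and had 1993, 2289 and 2454 CPM in CFA replicates 1, 2 and 3 and 2048, 2457 and 1940 CPM in saline replicates 1, 2 and 3. The groups overlapped over their whole range, with a log2 fold change of 0.064 ± 0.17 (SE) that was -0.0047 without saline replicate 3. The synapsins tether vesicles in the reserve pool: Syn1 was at 209 ± 43.5 RPKM in CFA and 202 ± 42.0 RPKM in saline libraries, and Syn2 was at 106 ± 8.04 RPKM in CFA and 114 ± 19.1 RPKM in saline libraries. Syn3, a synapsin best known from young neurons, was at 1.84 ± 0.504 RPKM in CFA and 2.18 ± 0.330 RPKM in saline libraries, so that Syn1 was 68.5 to 186 times Syn3 within a library. Of the SV2 glycoproteins, Sv2b and Sv2a were near each other, with Sv2b 1.03 to 1.39 times Sv2a, and both had small positive log2 fold changes (0.22 and 0.20) with intervals that include 0. Sv2c, the SV2 form of basal ganglia neurons, had 8, 12 and 4 counts in CFA replicates 1, 2 and 3 and 14, 11 and 6 counts in saline replicates 1, 2 and 3. These counts overlapped. Markers of striatal projection neurons, in which Sv2c is abundant, summed to 488, 290 and 337 CPM in CFA replicates 1, 2 and 3 and to 1016, 502 and 397 CPM in saline replicates 1, 2 and 3, with 9 of 9 tested markers at a negative log2 fold change. Of these 9, 6 had an unadjusted p under 0.05 by edgeR (66.7%, against 3.22% of all genes) and 0 passed the threshold. The part of these markers in the Sv2c values was not tested. Syn1 shares exon sequence with Araf on the opposite strand and Sv2b with 1500012K07Rik, and reads of such pairs cannot be told apart without strand.

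The calcium sensors and complexins included 6 positive of 8 log2 fold changes, none past the threshold. Syt1, the fast calcium sensor of forebrain neurons, had 1940, 2066 and 2150 CPM in CFA replicates 1, 2 and 3 and 1740, 2269 and 1676 CPM in saline replicates 1, 2 and 3. Its CFA values lay within the range of saline values, and its log2 fold change was 0.11 ± 0.18 (SE), against 0.034 without saline replicate 3 and 0.27 without saline replicate 2. Syt4, a synaptotagmin whose first C2 domain does not bind calcium in the usual way, followed at 150 ± 15.4 RPKM in CFA and 154 ± 21.7 RPKM in saline libraries. Syt7, the sensor of asynchronous release and facilitation, was at 19.1 ± 2.40 RPKM in CFA and 18.3 ± 5.02 RPKM in saline libraries, and Syt1 was 14.6 to 27.1 times Syt7 within a library. Syt2, the fast sensor of hindbrain neurons and of parvalbumin interneurons, had 11, 16 and 4 counts in CFA replicates 1, 2 and 3 and 31, 7 and 0 counts in saline replicates 1, 2 and 3. The 0 allows up to 0.304 CPM in that library, by counting error alone, and the sign of Syt2's log2 fold change (-0.34) turned to 0.80 in limma-voom. Doc2a, a high-affinity sensor of spontaneous and asynchronous release, was at 49.0 ± 3.88 RPKM in CFA and 45.2 ± 8.13 RPKM in saline libraries, while Doc2b was under 1 RPKM in every library. Doc2a overlaps Ino80e on the opposite strand.

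Both complexins were higher in the mean of CFA libraries without passing the test. Cplx1 had 332, 360 and 359 CPM in CFA replicates 1, 2 and 3 and 265, 377 and 194 CPM in saline replicates 1, 2 and 3. Saline replicate 2 was above all CFA libraries, so the groups overlapped, and the log2 fold change was 0.33 ± 0.22 (SE). It was 0.61 without saline replicate 2 and 0.13 without saline replicate 3. Cplx2 had 143, 119 and 142 CPM in CFA replicates 1, 2 and 3 and 82.6, 122 and 110 CPM in saline replicates 1, 2 and 3. Only saline replicate 2 reached into the CFA range, and the log2 fold change was 0.36 ± 0.19 (SE), with an unadjusted quasi-likelihood p of 0.0769 in edgeR. It was 0.21 without saline replicate 1. Cplx1 is best known from inhibitory and Cplx2 from excitatory forebrain neurons, and Cplx1 was 3.96 to 7.21 times Cplx2 per length. Inhibitory neuron markers (11 genes, of which Lamp5 also marks upper layer neurons) summed to 544, 507 and 454 CPM in CFA replicates 1, 2 and 3 and to 476, 438 and 344 CPM in saline replicates 1, 2 and 3. Lamp5 made up most of these sums, with 288, 271 and 304 CPM in CFA replicates 1, 2 and 3 and 251, 265 and 200 CPM in saline replicates 1, 2 and 3. All 10 tested markers of that list had log2 fold changes above 0 (median 0.33), with 0 past the threshold, and Erbb4 was at 0 counts in saline replicates 1 and 3. Their part in the complexin values was not tested.

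Of the priming and active zone genes, 8 of 9 had negative log2 fold changes and 0 passed the threshold. Their median was -0.21, where 49.8% of all tested genes were positive. Without saline replicate 3, 6 of 9 were negative and the median was -0.12. The difference between role classes was not tested. Pclo encodes piccolo, a giant scaffold of the active zone (chromosome 5, 14514918 to 14863459, mm10, plus strand, 22100 exon bases). It had 237, 193 and 193 CPM in CFA replicates 1, 2 and 3 and 251, 251 and 381 CPM in saline replicates 1, 2 and 3. Every CFA library was below every saline library, though CFA replicate 1 was close to saline replicates 1 and 2. The log2 fold change was -0.50 ± 0.20 (SE), with an unadjusted p of 0.0234 and an adjusted p of 0.99997 by edgeR. Without saline replicate 3 it was -0.27, with an unadjusted p of 0.112. Bsn, which encodes the related scaffold bassoon, was at 5.46 ± 0.363 RPKM in CFA and 6.31 ± 0.997 RPKM in saline libraries, and its log2 fold change was -0.21 with an interval of -0.59 to 0.17.

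Unc13a, which encodes Munc13-1, the main priming factor of excitatory terminals, had the highest mean of the class per length, in part through saline replicate 3 (30.2 RPKM), and overlapped with Rims2. Unc13a had 157, 137 and 144 CPM in CFA replicates 1, 2 and 3 and 109, 121 and 240 CPM in saline replicates 1, 2 and 3. The CFA values lay between the saline values, and the log2 fold change of -0.11 ± 0.25 (SE) became 0.34 without saline replicate 3. Unc13b (Munc13-2) did the same, with a log2 fold change of -0.12 that became 0.47 without that library and 0.0080 in limma-voom. Unc13a was 1.995 to 2.92 times Unc13b within a library, and CFA (1.995 to 2.92) and saline (2.14 to 2.76) overlapped. Unc13c, the cerebellar Munc13-3, had 20, 0 and 13 counts in CFA replicates 1, 2 and 3 and 12, 21 and 22 counts in saline replicates 1, 2 and 3, where the 0 allows up to 0.265 CPM.

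The RIM proteins link vesicle, Munc13 and calcium channel. Rims1 had 57.1, 46.4 and 51.3 CPM in CFA replicates 1, 2 and 3 and 54.9, 67.0 and 68.9 CPM in saline replicates 1, 2 and 3. CFA replicate 1 was above saline replicate 1, and the log2 fold change was -0.30 ± 0.19 (SE). Rims2 was at 14.8 ± 2.23 RPKM in CFA and 16.1 ± 0.380 RPKM in saline libraries, level with Rims1 (12.7 ± 1.32 RPKM in CFA, 15.6 ± 1.87 RPKM in saline). Rims3, which encodes a short RIM form that lacks most domains of the long ones, was the only member of the class with a positive log2 fold change, 0.60 ± 0.41 (SE). It had 10.0, 5.47 and 8.56 CPM in CFA replicates 1, 2 and 3 and 4.29, 5.75 and 5.78 CPM in saline replicates 1, 2 and 3. CFA replicate 2 was below saline replicates 2 and 3, so the groups overlapped. Rimbp2, which binds RIMs and calcium channels, had a log2 fold change of -0.26 that was -0.0037 without saline replicate 3.

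**Figure D3:**
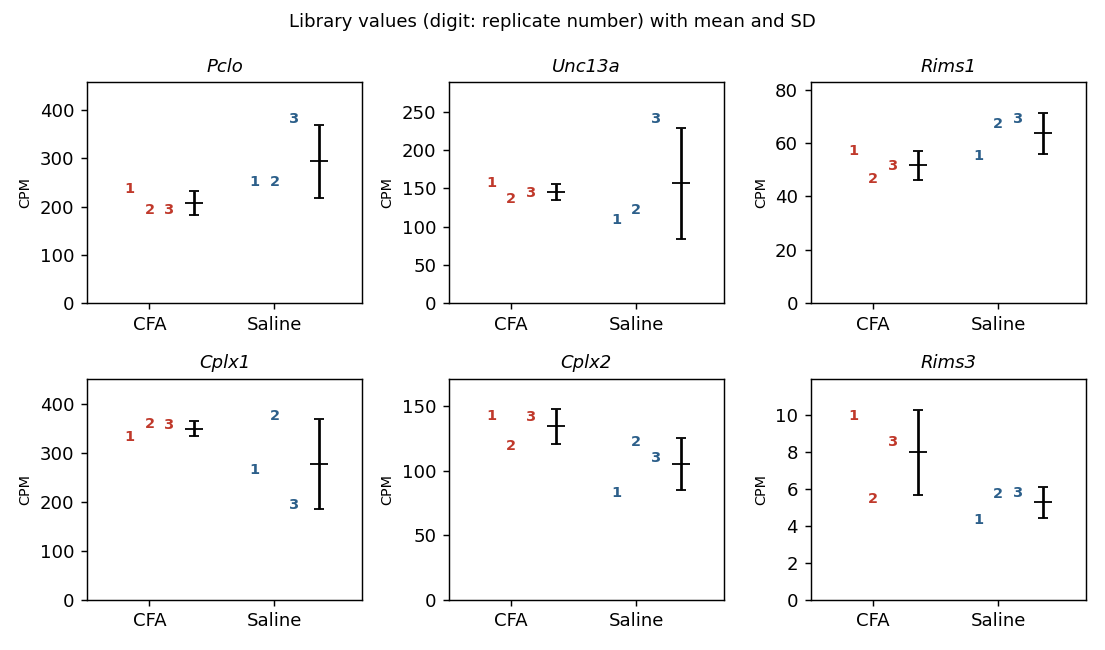
CPM of 6 members in each library (digits are replicate numbers, red CFA, blue saline) with the group mean and SD (black). Pclo is below 240 in CFA and above 250 in saline libraries, and saline replicate 3 is the highest library for Pclo, Unc13a and Rims1 and the lowest for Cplx1.

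Saline replicate 3 differed from the other saline libraries in opposite directions for SNARE genes and for active zone genes. It was the lowest of 6 libraries for 5 of 6 SNARE and recycling genes and the highest for 6 of 9 priming and active zone genes, against 23.7% of all tested genes lowest and 23.9% highest in that library. Against the mean of saline replicates 1 and 2, its median log2 difference was -0.43 for SNARE and recycling genes, -0.21 for vesicle proteins, -0.035 for calcium sensors and complexins, and 0.56 for priming and active zone genes, with 0.017 over all tested genes. Snap25 differed by -0.64, Nsf by -0.54, Unc13a by 1.06 and Unc13b by 1.33. The 30 members together summed to 15800, 15159 and 17204 CPM in CFA replicates 1, 2 and 3 and to 14728, 18258 and 13483 CPM in saline replicates 1, 2 and 3, so saline libraries held both extremes. Across the 26 members at 1 RPKM or more, the difference of saline replicate 3 had a Spearman's rho of -0.74 with level and 0.46 with exon length, and across all 30 members of -0.455 with level and 0.452 with exon length, as a description of genes that share 1 library. The same library had the highest sum of nuclear-retained RNAs, and the part of that in the members' values was not tested.

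**Figure D4:**
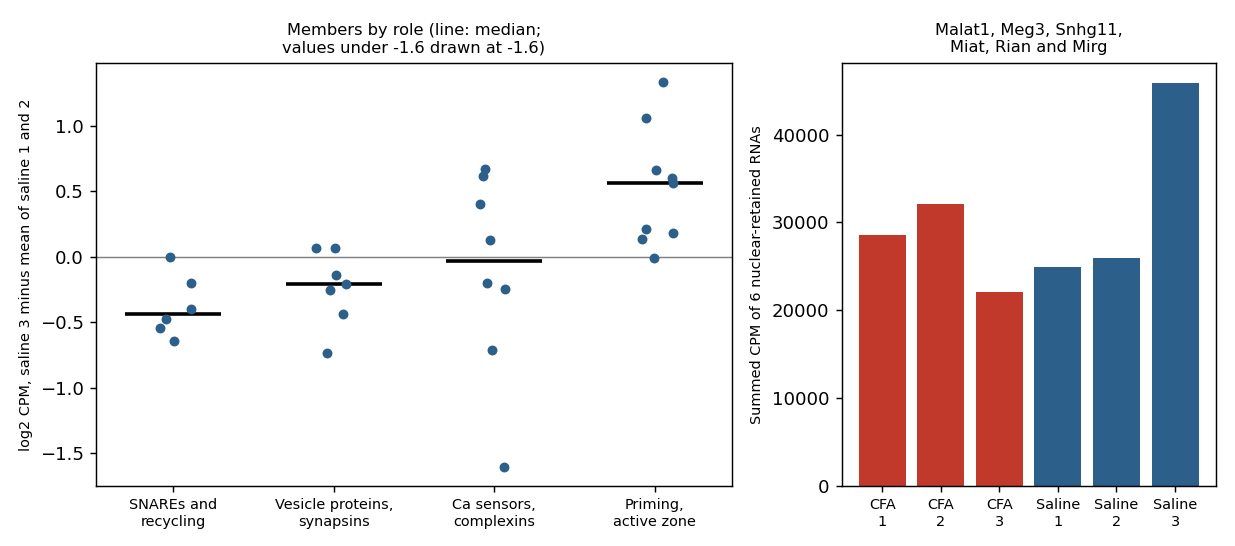
Left, difference of each member between saline replicate 3 and the mean of saline replicates 1 and 2 (y, log2 CPM) by role, with the class median as a line. SNARE genes lie at or below 0 and priming and active zone genes mostly above it. Right, summed CPM of 6 nuclear-retained RNAs per library, highest in saline replicate 3 at 45886.

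Other genes of exocytosis gave no call either. Of 45 further genes of release, 44 were tested and 0 passed, with 22 positive and 22 negative log2 fold changes and a median of 0.0054. An unadjusted p under 0.05 by edgeR was reached by 3 of them (6.82% of 44), against 3.22% of all genes in either direction. All 3 were lower in CFA, where 1.87% of all genes were lower at that level. Rab3b, a small GTPase of vesicles, had 93.7, 92.6 and 78.1 CPM in CFA replicates 1, 2 and 3 and 178, 128 and 102 CPM in saline replicates 1, 2 and 3. All CFA libraries were below all saline libraries, with a log2 fold change of -0.63 ± 0.21 (SE) and an adjusted p of 0.99997 by edgeR, and a log2 fold change of -0.39 without saline replicate 1. Erc1, an ELKS scaffold of the active zone, had 74.7, 73.2 and 62.2 CPM in CFA replicates 1, 2 and 3 and 100, 96.2 and 86.1 CPM in saline replicates 1, 2 and 3. These groups did not overlap either, with a log2 fold change of -0.43 ± 0.17 (SE) that was -0.49 without saline replicate 3. Syt10, a calcium sensor of growth factor secretion in the olfactory bulb, was at 15.1 ± 3.07 CPM in the CFA group, against 22.8 ± 3.10 CPM in the saline group. Groups did not overlap for 6 of the 44 genes, 4 lower and 2 higher in CFA, where 3.97% of all genes were lower and 3.55% higher without overlap.

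Genes that retrieve vesicle membrane after fusion gave no call. All 29 recycling genes were tested and 0 passed, with 16 positive and 13 negative log2 fold changes and a median of 0.011. Dnm3, a dynamin that cuts vesicles from the membrane, was at 157 ± 18.2 CPM in the CFA group, against 207 ± 22.3 CPM in the saline group, for a log2 fold change of -0.40 ± 0.17 (SE). Fcho2, an early factor of clathrin pits, was at 43.8 ± 5.52 CPM in the CFA group, against 63.8 ± 18.0 CPM in the saline group, for a log2 fold change of -0.54 that was -0.30 without saline replicate 3. These 2 genes, both lower in CFA, were the only recycling genes with an unadjusted p under 0.05 by edgeR (6.90% of 29). Of all genes, 3.22% reached that level in either direction, and 1.87% were lower at it. Groups did not overlap for 1 of the 29 genes, Dnm3, where 7.51% of all genes did not overlap.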

How the data were processed

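The authors deposited raw counts per gene for 6 libraries, with gene model coordinates and exon length, per the file headers. HISAT2 2.2.1, featureCounts 2.0.1, SAMtools 1.13, Trim Galore and edgeR 3.32.1 are named by the submitters' processing notes, with the build mm10; settings for strand and multi-mapping reads were not given in the sources used here. Per the labels' protocols, polyadenylated RNA was amplified with 9 PCR cycles, without molecular identifiers, so floors (3 counts) cover counting error only. Groups came from sample titles. Counts were tested with edgeR 4.0.16 in R 4.3.3 (quasi-likelihood, TMM, filterByExpr, group as the only term, Benjamini-Hochberg over 13560 genes, threshold 0.05). Standard errors came from the F statistic, log2 CPM used a prior count of 2, and Bzrap1 stood for Tspoap1. The fit was tested on simulated data with planted changes larger than the estimate of any member. That test does not cover differences of the members' size. Alternatives used DESeq2 1.42.0 and limma 3.58.1, other scalings and filters, a replicate block and leaving out each library.

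Members and lists were chosen with earlier results of these data known. Values are given per library for members without overlap or with an unadjusted p under 0.05 and for the highest member per length of each role; of the other lists, genes with an unadjusted p under 0.05 are named. Further per-library values (complexins, Rims1, Rims3 and members with few counts), the promoter windows and the account of saline replicate 3 were chosen after values were seen. Promoter sequences are RefSeq's (GRCm38.p6).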

Additional observations from a re-analysis of the deposited data

How the results depend on the processing

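No alternative called a release machinery member, another release gene or a recycling gene, including DESeq2, limma-voom, a threshold of 0.1 and each left-out library. Over all genes 0 were called with all libraries, against 9 without a low-count filter, 5 in DESeq2, 6 with the replicate block and 0 to 5 when single libraries were left out. The labels do not say whether the replicate numbers pair the libraries. Correlations of deviations between same-numbered CFA and saline libraries were -0.079, 0.025 and -0.069. Between libraries of different numbers they were -0.079 to 0.15. With 3 libraries per group these values cannot exclude pairing. None of the 6 calls under the block was a member. Leaving out single libraries gave a median of the members' log2 fold changes of -0.072 to 0.086, 12 to 17 members with a positive value, 0 to 3 members with an unadjusted p under 0.05, 0 to 5 members higher without overlap and 1 to 4 lower, where fewer libraries make a gap between groups more likely by construction. With library size as the only scaling, 2 members were higher without overlap. The share of all genes without overlap was not computed in these alternative fits, so the counts of members without overlap have no background here. Of the 30 members, 18 kept the sign of their log2 fold change under all 13 alternatives in which they were fitted and 12 did not. Nsf (main value -0.015) was at 0.0088 in limma-voom and 0.0098 with the block, Syt2 at 0.80 in limma-voom and 0.45 with the block, and Unc13b at 0.0080 in limma-voom. Values whose sign changed ranged, over left-out libraries, from -0.11 to 0.52 for Doc2b, -0.37 to 0.021 for Foxp2, -0.093 to 0.32 for Gad1, -0.10 to 0.56 for Gad2, -0.19 to 0.080 for Napb, -0.18 to 0.19 for Nsf, -0.030 to 0.19 for Slc17a7, -0.11 to 0.26 for Snap25, -0.068 to 0.23 for Syn1, -0.0047 to 0.17 for Syp, -0.91 to 1.42 for Syt2, -0.11 to 0.092 for Syt4, -0.11 to 0.29 for Syt7, -0.31 to 0.34 for Unc13a, -0.35 to 0.47 for Unc13b, -0.20 to 0.13 for Vamp2. The cause was not tested. Doc2b, Syt2, Sv2c and Unc13c had few counts, with means under 1 RPKM.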

Other observations

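Among genes outside the 30 members, picked after their values were seen, Rab3a, the main vesicle GTPase of the forebrain, was at 564 RPKM in CFA and 574 RPKM in saline libraries. Bzrap1, a RIM-binding protein, had 239, 157 and 235 CPM in CFA replicates 1, 2 and 3 and 135, 114 and 311 CPM in saline replicates 1, 2 and 3, so that saline replicate 3 was its highest library as it was for Unc13a and Unc13b. Erc2, an active zone scaffold like Erc1, was at 121 ± 17.1 CPM in the CFA group, against 150 ± 16.9 CPM in the saline group, without overlap. Stxbp6, which encodes the SNARE-binding protein amisyn, was at 57.8 ± 5.29 CPM in the CFA group, against 43.9 ± 2.91 CPM in the saline group, and Dnajc5, a vesicle chaperone, at 340 ± 30.3 CPM in the CFA group, against 303 ± 6.26 CPM in the saline group, both without overlap.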
